A study of Homo sapiens with 6 samples.

Results

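Aminoacyl-tRNA synthetases join each amino acid to its own tRNA and so supply the ribosome with charged tRNA. The cytosol and the mitochondria each need such a set, and most mitochondrial enzymes come from nuclear genes of their own, whose symbols end in 2. The genes described here are 40 of the 20325 genes of the deposited table, chosen by symbol, with earlier results of these data known. They are 20 cytosolic synthetases, 16 mitochondrial synthetases, the scaffold proteins AIMP1, AIMP2 and EEF1E1 of the multisynthetase complex, and XPOT, the receptor that carries tRNA out of the nucleus. In amino acid shortage uncharged tRNA activates the kinase GCN2 (EIF2AK4), which favours translation of the transcription factor ATF4. Several synthetase genes and XPOT are known targets of ATF4. The ATF4 response of these libraries was known when the genes were chosen, so the direction in which they moved is not independent support for it.

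RNA was sequenced from SNU-668, a cell line of human gastric carcinoma that carries a label of resistance to erastin, an inhibitor of cystine import that induces ferroptosis. The knockdown group received an shRNA against ALKBH3, a dioxygenase that removes methyl groups from DNA and RNA, and the control group a control shRNA (genotype label WT), with 3 libraries each. All 6 libraries thus come from resistant cells in DMEM with 10% serum, and parental, erastin-sensitive cells were not analysed here. RLS3, a code in every library title, has no explanation in the labels. The labels name no shRNA sequence or clone. They also leave unsaid whether a group's libraries came from separate cultures, so every p-value rests on a spread among libraries that may be technical only.

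Library totals ran from 14890452 to 17880183 counts in the knockdown and from 14244932 to 15470321 in the control. ALKBH3 itself had 95, 106 and 68 reads in the knockdown libraries and 326, 351 and 334 in the control libraries, which gave a log2 fold change of -2.11 (adjusted p = 1.01e-10 in edgeR's quasi-likelihood test). Of the epithelial markers, KRT18 was at 193 ± 6.28 CPM (counts scaled to library size) in the knockdown and 149 ± 10.5 CPM in the control, KRT8 at 17.6 ± 0.956 CPM in the knockdown and 13.3 ± 1.29 CPM in the control, and KRT19 at 1.26 ± 0.133 CPM in the knockdown and 1.12 ± 0.307 CPM in the control (SD, n = 3 each). KRT18 and KRT8 were called higher in the knockdown (edgeR, adjusted p = 0.0024 and 0.0419). The KRT18 call held in all 6 fits that leave out a library, the KRT8 call in 1 of the 6. EPCAM had at most 16 reads in any library and CDH1 had 0, as had the gastric markers MUC5AC, MUC6 and GKN1. TFF1 and TFF2 had at most 2 reads. KRT18 and KRT8 were thus present, while KRT19, EPCAM, CDH1 and the gastric markers were low or at 0. These markers bear out the labelled epithelial and gastric origin only in part. The leukocyte marker PTPRC had 32, 65 and 0 reads in the knockdown libraries and 16, 18 and 2 in the control libraries. Of the fibroblast markers DCN and COL1A1, DCN had 0 reads in the knockdown libraries and at most 5 in a control library. The mesenchymal marker VIM was at 3865 ± 44.4 CPM in the knockdown and 3840.5 ± 168 CPM in the control (SD, n = 3 each). COL1A1, the other fibroblast marker, was thus not absent, at 80.1 ± 14.5 CPM in the knockdown and 105 ± 13.2 CPM in the control (SD, n = 3 each). Neither gene was called by edgeR, where COL1A1 had an adjusted p = 0.0512. With DESeq2 and limma-voom COL1A1 was called (adjusted p = 0.0239 and 0.0282). The part of these markers in the results was not tested. Knockdown replicates 2 and 3 were the most alike pair within a group (chi-square of 3.05 per degree of freedom, against 10.3 to 11 in the other pairs).

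Of the 20 cytosolic synthetases, 11 rose in the knockdown, 1 fell and 8 did not pass the test, and XPOT rose. The raised enzymes were those for alanine (AARS), cysteine (CARS), glutamate and proline (EPRS), glycine (GARS), isoleucine (IARS), methionine (MARS), asparagine (NARS), serine (SARS), threonine (TARS), tryptophan (WARS) and tyrosine (YARS). Of the 16 mitochondrial synthetases 0 rose and 1 fell (1 called by edgeR, DESeq2 and limma-voom alike, 3 with an unadjusted p under 0.05), and of the 3 scaffolds 0 passed with any of these tools or at an unadjusted p under 0.05. In edgeR 2730 of the 12305 tested genes had an unadjusted p under 0.05. Counts of 3 of 16 and 0 of 3 at that threshold thus do not set these genes apart. Over all 40 genes, 12 were higher, against a background of 3.96% of the 12305 tested genes, and 2 were lower, against 4.12% (calls throughout are at a Benjamini-Hochberg adjusted p under 0.05 in that edgeR test). Scaled by library totals alone, all tested genes gave 610 higher and 417 lower calls, in place of 487 and 507, and the calls of the 40 genes stayed at 12 and 2. In bulk libraries more RNA per cell and more cells that express a gene cannot be told apart. All 40 passed the filter on low counts. At 1.5-fold or more 11 were higher, against 1.34% of all tested genes. The groups did not overlap in 19 of the 40, against 26.6% of all tested genes. The median log2 fold change was 0.60 among the cytosolic enzymes, -0.01 among the mitochondrial enzymes and 0.01 over all tested genes. The raised genes stood clear of the rest: their log2 fold changes ran from 0.58 to 1.15, and the highest value among members that were not called was 0.23, for LARS.

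**Figure D1:**
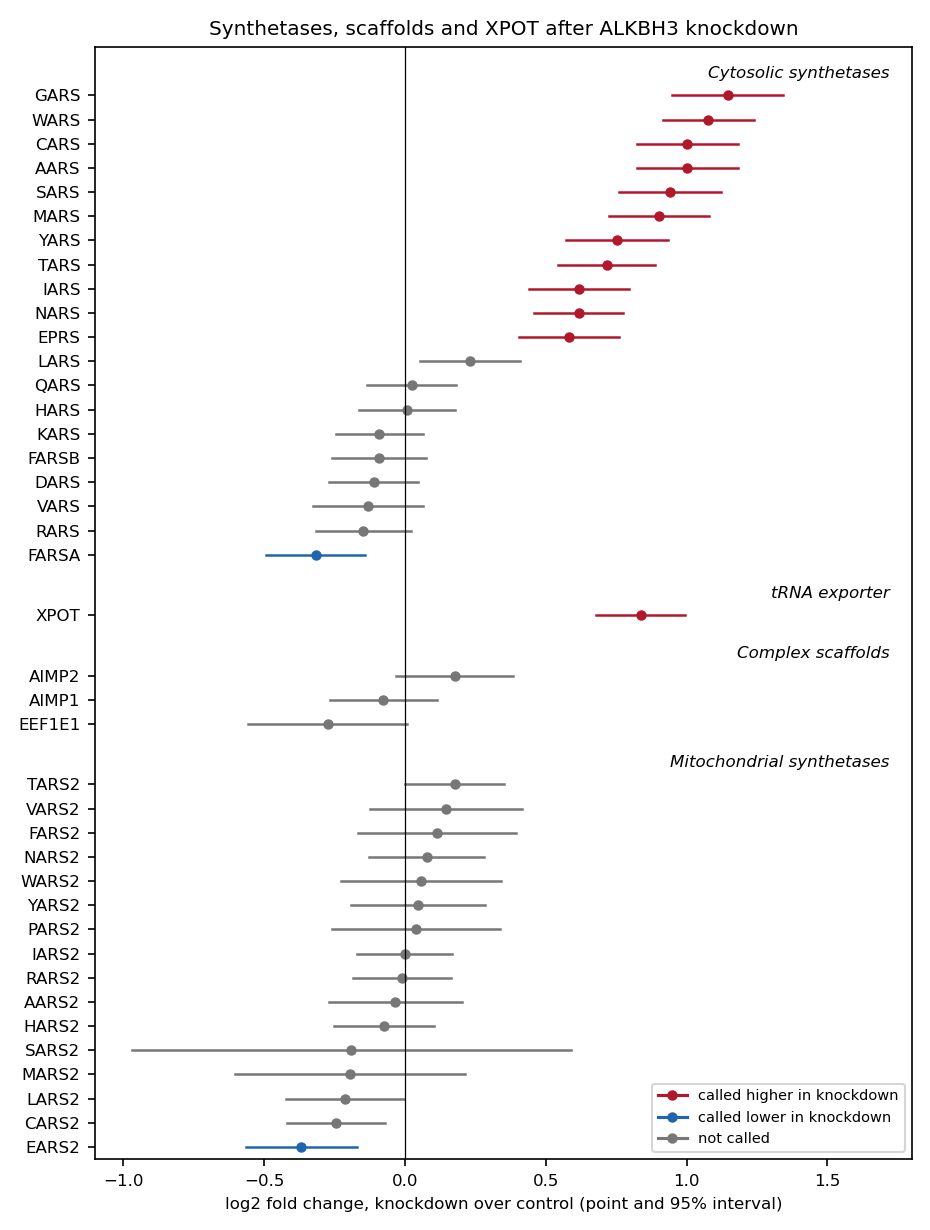
Log2 fold change, knockdown over control, of each of the 40 genes with its 95% interval, sorted within 4 role groups; red is called higher, blue called lower and grey not called. The 11 raised cytosolic enzymes and XPOT lie between 0.58 and 1.15, and no mitochondrial enzyme or scaffold lies above 0.18.

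ATF4 binds a composite C/EBP-ATF element whose core reads TGATGNAA, where N is any base. RefSeq promoter windows (GRCh38.p14, 250 bases before and 50 bases from each start site) were found for 34 of the 40 genes by their Entrez identifier. No entry was used for DARS, LARS, VARS, YARS, AARS2 and VARS2. Searched on both strands, the element stood in a window of 7 of the 11 raised genes with an entry, or 63.6%, in 0 of the 2 lowered genes and in 1 of the 21 genes that were not called, or 4.76%. The genes not called with an entry were mitochondrial enzymes, the scaffolds and the cytosolic FARSB, HARS, KARS, QARS and RARS. The raised genes are cytosolic enzymes and XPOT, so this contrast is in large part between cytosolic and mitochondrial genes. Among the 27305 genes with such windows the element stood in 4.46%, and in 3.62% of all windows. In the bases before the start site alone it stood in 3 of the 11 raised genes, or 27.3% (AARS, GARS and IARS), in 1 of the 21 not called and in 3.89% of all genes. Its common form TGATGCAA, which is 1 case of the element, stood in 6 raised genes, in 0 of the lowered genes and 0 of those not called, against 1.08% of all genes and 0.866% of all windows. Several of these genes were known ATF4 targets, and the ATF4 response was known when they were chosen. The shares are thus not independent support for that response. The matches are shown on the strand of the gene, 30 bases each, with the matching letters in capitals. They are given for the 7 raised genes and the 1 gene not called that hold the element.
AARS: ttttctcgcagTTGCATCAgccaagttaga
CARS: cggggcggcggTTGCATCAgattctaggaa
IARS: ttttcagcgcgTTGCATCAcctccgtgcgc
MARS: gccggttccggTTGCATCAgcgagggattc
TARS: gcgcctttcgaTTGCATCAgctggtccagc
NARS: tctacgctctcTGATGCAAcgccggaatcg
GARS: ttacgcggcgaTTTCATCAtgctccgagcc
YARS2: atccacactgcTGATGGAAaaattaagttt

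AARS, CARS, IARS, MARS and TARS hold the common form on the opposite strand and NARS holds it on its own strand. GARS and YARS2 hold other forms of the element. The windows lie at chr16:70289675-70289704 minus (AARS), chr11:3057407-3057436 minus (CARS), chr9:92293692-92293721 minus (IARS), chr12:57488053-57488082 plus (MARS), chr5:33440956-33440985 plus (TARS), chr18:57621804-57621833 minus (NARS), chr7:30594834-30594863 plus (GARS) and chr12:32756076-32756105 minus (YARS2), all in GRCh38.p14. In MARS, CARS and TARS the first base of the match was within 4 bases of the start site, and in NARS it was base 15, counting the start as base 1, so these 4 matches reach into the transcribed sequence or lie in it. The match began 13 bases before the start in IARS, 33 in GARS, 187 in AARS and 197 in YARS2. YARS2, the mitochondrial tyrosine enzyme, was the 1 member with a match that was not called. The raised genes EPRS, SARS, WARS and XPOT had no match in their windows, which says only that these letters are not in those bases.

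For comparison, ASNS (asparagine synthetase), the best known output of this pathway, holds a variant of the element 68 bases before its start site.
ASNS: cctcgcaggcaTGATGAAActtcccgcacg
The ASNS window is chr7:97872458-97872487 minus in GRCh38.p14.

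**Figure D2:**
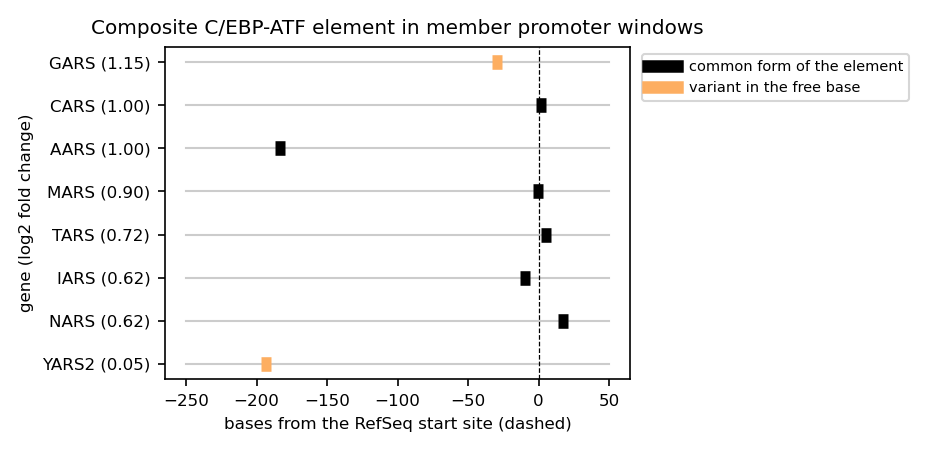
Position of the composite C/EBP-ATF element in the RefSeq promoter windows of the 8 members that hold it, in bases from the start site, with each gene's log2 fold change in brackets; grey lines are the windows searched, black bars the common form and orange bars variants. In 5 of the 8 genes the match begins from 13 bases before to 15 bases after the start site.

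GARS, which charges glycine tRNA in both the cytosol and the mitochondria, had the largest log2 fold change of the 40 genes. In the knockdown libraries it was at 689.7, 615 and 628 CPM, against 331, 245 and 299 CPM in the control libraries. Every knockdown library was thus above every control library. Its log2 fold change was 1.15 with an SE of 0.0959 (edgeR, adjusted p = 7.34e-09), or 2.21-fold. In hg19 the gene is ENSG00000106105, chromosome 7, 30634297 to 30673649, plus strand.

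WARS, the tryptophan enzyme, which is also induced by interferon-gamma, followed at 195, 200.2 and 186 CPM in the knockdown and 97.9, 85.6 and 92.4 CPM in the control (ENSG00000140105, chromosome 14, 100800125 to 100843142, minus strand). Its log2 fold change was 1.08 with an SE of 0.0785, and its adjusted p = 5.59e-10 was the smallest of the 40 genes (edgeR). No knockdown library came near the control libraries. CARS, which charges cysteine, the amino acid whose import erastin limits, was at 280.1, 247 and 249.7 CPM in the knockdown and 140.2, 114 and 134 CPM in the control, a log2 fold change of 1.00 (ENSG00000110619, chromosome 11, 3022152 to 3078843, minus strand; edgeR, adjusted p = 8.48e-09). AARS, the alanine enzyme, stood at 527, 472 and 460.4 CPM in the knockdown and 263, 217 and 249 CPM in the control, with a log2 fold change of 1.00 (ENSG00000090861, chromosome 16, 70286198 to 70323446, minus strand; edgeR, adjusted p = 9.75e-09). Both genes had their highest knockdown value in replicate 1 and their lowest control value in replicate 2.

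SARS charges serine tRNA and also the tRNA on which selenocysteine is made. It measured 371, 316 and 323 CPM in the knockdown libraries and 182, 156 and 189 CPM in the control libraries, a log2 fold change of 0.94 (ENSG00000031698, chromosome 1, 109756540 to 109780791, plus strand; edgeR, adjusted p = 3.56e-08). MARS, the methionine enzyme, measured 296, 254 and 256 CPM in the knockdown and 152, 128 and 152 CPM in the control, a log2 fold change of 0.90 (ENSG00000166986, chromosome 12, 57869228 to 57911352, plus strand; edgeR, adjusted p = 5.76e-08). The groups did not overlap in either gene. MARS shares 982 bases with DDIT3, a stress-induced transcription factor gene on the opposite strand. DDIT3 averaged 31.8 CPM in the knockdown and 20.7 CPM in the control, and whether counting used the strand is not stated, so its part in the MARS value was not tested.

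YARS, the tyrosine enzyme, was at 479, 439 and 452 CPM in the knockdown, against 299.7, 236 and 277 CPM in the control (ENSG00000134684, chromosome 1, 33240840 to 33283754, minus strand). TARS, for threonine, was at 725, 626 and 675 CPM in the knockdown, against 435, 395 and 404 CPM in the control (ENSG00000113407, chromosome 5, 33440802 to 33469644, plus strand). Their log2 fold changes were 0.75 and 0.72 (edgeR, adjusted p = 1.80e-06 and 1.93e-06), and neither gene's groups overlapped. IARS, for isoleucine, reached 499, 446 and 445 CPM in the knockdown and 334, 273 and 299 CPM in the control (ENSG00000196305, chromosome 9, 94972489 to 95056038, minus strand). NARS, for asparagine, reached 316, 295 and 322 CPM in the knockdown and 208, 203 and 198 CPM in the control (ENSG00000134440, chromosome 18, 55267888 to 55289445, minus strand). Both had a log2 fold change of 0.62 (edgeR, adjusted p = 2.81e-05 for IARS and 4.95e-06 for NARS), with NARS the tighter of the pair in the control. EPRS, which holds the glutamate and proline enzymes in 1 chain, had the lowest log2 fold change of the raised genes, 0.58, with 374, 356 and 379.95 CPM in the knockdown and 282, 229 and 229 CPM in the control (ENSG00000136628, chromosome 1, 220141943 to 220220000, minus strand; edgeR, adjusted p = 5.63e-05). In EPRS the first control library was the highest of its group, and still below every knockdown library.

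XPOT, the tRNA export receptor, was at 329, 337 and 351 CPM in the knockdown libraries and 190.5, 194 and 186 CPM in the control libraries (ENSG00000184575, chromosome 12, 64798130 to 64844907, plus strand). Its log2 fold change was 0.84 with an SE of 0.0763 (edgeR, adjusted p = 2.34e-08). The other nuclear export receptors measured, XPO1, XPO4, XPO5, XPO6, XPO7 and CSE1L, gave 0 calls of 6 by edgeR, DESeq2 or limma-voom, with 0 at an unadjusted p under 0.05. In edgeR 8.08% of all tested genes were called in either direction, and 2730 of 12305 had an unadjusted p under 0.05. Neither count of 0 of 6 thus sets these receptors apart from other genes. Their log2 fold changes ran from -0.15 to 0.06.

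**Figure D3:**
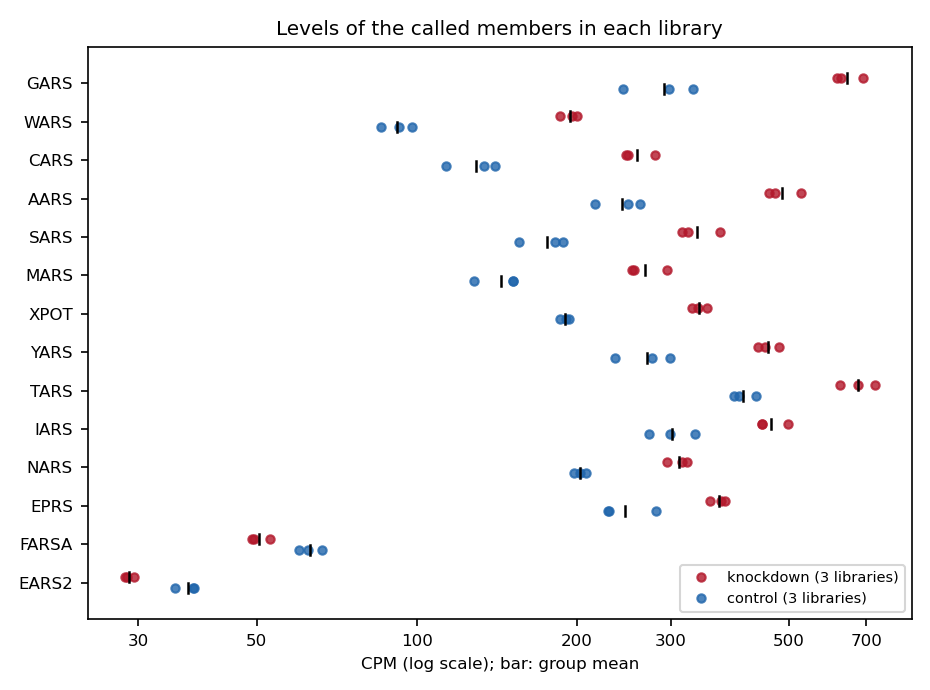
CPM, on a log axis, of the 14 called genes in each of the 3 knockdown (red) and 3 control (blue) libraries, with black bars at the group means. In the 12 raised genes all knockdown points lie right of all control points, and in FARSA and EARS2 all lie left.

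Of the 12 raised genes, 8 were highest within the knockdown group in replicate 1 and 8 were lowest in replicate 2. In the control group 10 of the 12 were highest in replicate 1 and 10 were lowest in replicate 2. The mean log2 deviation of the 12 genes from their control means was 0.93, 0.80 and 0.83 in the knockdown libraries and 0.11, -0.12 and 0.02 in the control libraries. The members that did not rise showed part of the same order. For the 8 cytosolic enzymes not called the mean deviation was 0.03, -0.07 and -0.07 in the knockdown and 0.07, -0.08 and 0.01 in the control, and for the 16 mitochondrial enzymes 0.03, -0.05 and -0.11 in the knockdown and 0.05, -0.03 and -0.02 in the control. Replicate 1 was thus highest in both groups and control replicate 2 lowest in its group in all 3 sets. ATF4 was at 563, 515 and 509 CPM in the knockdown and 284, 247 and 298 CPM in the control. These 12 genes were chosen for their calls, so the means describe them and test nothing.

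Per kilobase of exon (union of GENCODE release 29 basic transcripts, an approximation, since the annotation used for counting is not given), GARS had the highest level of the 40 genes in both groups, 243 CPM per kb in the knockdown and 109.8 in the control. In the control it was followed by RARS, the arginine enzyme, at 106 CPM per kb. In the knockdown the next levels were those of SARS (173), TARS (148), YARS (141) and AARS (139.9 CPM per kb), with RARS at 95.6. The raised genes were not all abundant: WARS had 45.7 CPM per kb in the knockdown and 21.7 in the control. Summed, the 11 raised cytosolic enzymes took 0.478%, 0.430% and 0.442% of all counts in the knockdown libraries and 0.272%, 0.225% and 0.249% in the control libraries. The 8 cytosolic enzymes that were not called took 0.143%, 0.134% and 0.135% in the knockdown and 0.145%, 0.128% and 0.135% in the control, and there the groups overlapped.

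**Figure D4:**
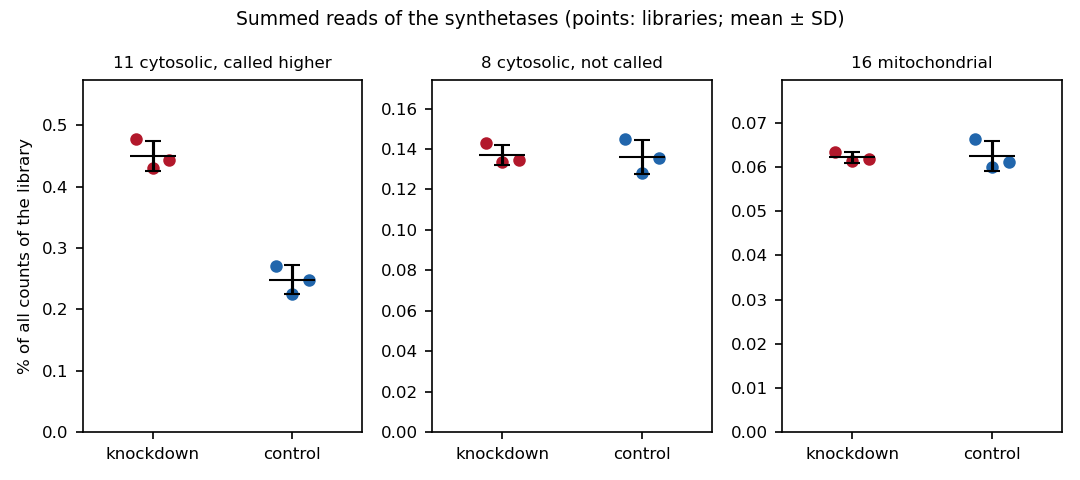
Share of each library's counts, in percent, taken by the 11 raised cytosolic synthetases, the 8 that were not called and the 16 mitochondrial synthetases; points are libraries and bars the mean ± SD of 3. The first set averages 0.450% in the knockdown and 0.249% in the control, while the groups overlap in the other sets.

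The 8 cytosolic enzymes that did not pass were those for aspartate (DARS), phenylalanine (FARSB), histidine (HARS), lysine (KARS), leucine (LARS), glutamine (QARS), arginine (RARS) and valine (VARS). LARS, which also senses leucine for mTORC1, came nearest among them, at 345, 298 and 307 CPM in the knockdown and 301, 254 and 254 CPM in the control. Knockdown replicate 2 lay below control replicate 1, so the groups overlapped. Its log2 fold change was 0.23 with a 95% interval of 0.05 to 0.41 (edgeR, adjusted p = 0.101), and it was called without control replicate 1 (adjusted p = 0.0276 in edgeR).

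QARS was at 158, 147 and 147 CPM in the knockdown and 149.7, 139 and 156 CPM in the control, and its 95% interval of the log2 fold change was -0.13 to 0.18. HARS averaged 102 ± 10.8 CPM in the knockdown and 102 ± 1.60 CPM in the control (SD, n = 3 each), with an interval of -0.16 to 0.18. In both genes the groups overlapped, and the sign of the log2 fold change turned without knockdown replicate 1 (-0.0128 in QARS and -0.0815 in HARS) and without control replicate 2 (-0.0198 and -0.00535). HARS overlaps HARS2, DND1 and WDR55 in hg19, and the part of reads from these genes in its count was not tested.

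The other 5 enzymes had negative log2 fold changes. DARS measured 119, 129 and 129 CPM in the knockdown and 135, 143 and 129.7 CPM in the control, and KARS, which serves the cytosol and the mitochondria, 166, 165 and 163 CPM in the knockdown and 176, 166 and 184 CPM in the control. Their groups did not overlap, yet the intervals of the log2 fold change, -0.27 to 0.05 for DARS and -0.25 to 0.06 for KARS, include 0. RARS measured 231, 204 and 214 CPM in the knockdown and 262, 223 and 234 CPM in the control, with an interval of -0.32 to 0.02. VARS measured 106, 91.04 and 82.7 CPM in the knockdown and 109, 89.7 and 108 CPM in the control, with an interval of -0.33 to 0.06. For none of these genes does the interval reach the 0.58 of the least raised enzyme.

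Phenylalanine tRNA is charged by a tetramer of the products of FARSA and FARSB, and these genes differed in their calls. FARSA fell to 53.1, 49.5 and 49.04 CPM in the knockdown, against 60.1, 62.4 and 66.4 CPM in the control, a log2 fold change of -0.32 (ENSG00000179115, chromosome 19, 13033293 to 13044851, minus strand; edgeR, adjusted p = 0.0209). All knockdown libraries lay below all controls, but the call was lost without knockdown replicate 2 (adjusted p = 0.106), knockdown replicate 3 (0.0983) or control replicate 3 (0.0663). FARSB was at 181, 198 and 191 CPM in the knockdown and 219.8, 183 and 204 CPM in the control, with overlapping groups and an interval of -0.26 to 0.08. The difference between the subunits was not tested.

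Raised cytosolic enzymes were found in both structural classes, and the following groupings were made after the calls were known. Synthetases fall into class I and class II by the fold of their catalytic domain, and 5 of 9 class I enzymes and 5 of 10 class II enzymes rose, beside EPRS, which holds both. Of the 8 enzymes that sit in the multisynthetase complex, EPRS, IARS and MARS rose and DARS, KARS, LARS, QARS and RARS did not pass. Of the 12 outside the complex, 8 rose. Human cells can make the amino acids of 10 of these enzymes, and 7 of those rose, namely AARS, CARS, EPRS, GARS, NARS, SARS and YARS. Of the 10 enzymes for amino acids needed from the diet, IARS, MARS, TARS and WARS rose and FARSA fell. The median log2 fold change was 0.69 in the first of these sets and 0.12 in the second.

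None of the 3 scaffolds, which hold the complex together, passed the test. AIMP1, which is also released as a precursor of the cytokine EMAP II, was at 109.5, 92.95 and 95.02 CPM in the knockdown and 120.5, 94.9 and 98.4 CPM in the control, with an interval of the log2 fold change of -0.27 to 0.11. AIMP2 was at 69.5, 52.9 and 62.00 CPM in the knockdown and 52.5, 49.6 and 61.2 CPM in the control, with an interval of -0.03 to 0.39. EEF1E1, the smallest scaffold, was at 15.2, 19.9 and 24.4 CPM in the knockdown and 26.2, 22.6 and 22.9 CPM in the control, with an interval of -0.56 to 0.01. The groups overlapped in all 3 genes. A readthrough gene and other genes share 31.8% of the 75-base stretches of the longest EEF1E1 transcript in GENCODE release 29, so its count is uncertain.

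Of the mitochondrial enzymes only EARS2, which charges glutamate tRNA there, passed the test, and it fell to 28.6, 28.3 and 29.4 CPM in the knockdown, against 38.03, 35.2 and 38.2 CPM in the control (ENSG00000103356, chromosome 16, 23533335 to 23569052, minus strand). The libraries were tight within each group, and the groups did not overlap. Its log2 fold change was -0.37 with an SE of 0.0956 (edgeR, adjusted p = 0.0162), a call lost without knockdown replicate 2 (0.0818). In hg19 EARS2 shares 661 bases with UBFD1 on the opposite strand, which averaged 67.2 CPM in the knockdown and 68.3 CPM in the control. Whether counting used the strand is not stated, so the part of UBFD1 in the EARS2 count was not tested. Other members, among them YARS, WARS and AIMP2, also overlap genes on the opposite strand, and this was not tested there either. CARS2, the mitochondrial cysteine enzyme, came nearest to a call among the other members, at 53.6, 52.4 and 59.8 CPM in the knockdown and 65.8, 63.7 and 66.7 CPM in the control, with a log2 fold change of -0.24 (edgeR, adjusted p = 0.0772). LARS2, for leucine, was at 31.03, 28.3 and 25.6 CPM in the knockdown and 32.8, 32.4 and 33.4 CPM in the control, also without overlap, with a log2 fold change of -0.21 (edgeR, adjusted p = 0.213). The cytosolic partners of EARS2 and CARS2, EPRS and CARS, rose in the same libraries.

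Of the mitochondrial members with a positive log2 fold change, TARS2, for threonine, was the highest, at 50.7, 49.5 and 51.6 CPM in the knockdown and 45.8, 44.00 and 44.5 CPM in the control. Its groups did not overlap and its log2 fold change was 0.18 (edgeR, adjusted p = 0.226). VARS2, for valine, was at 31.03, 26.3 and 19.9 CPM in the knockdown and 22.3, 25.2 and 22.5 CPM in the control, FARS2, for phenylalanine, at 12.2, 15.1 and 12.03 CPM in the knockdown and 12.96, 11.2 and 12.2 CPM in the control, and NARS2, for asparagine, at 39.4, 40.1 and 40.3 CPM in the knockdown and 43.7, 34.8 and 35.2 CPM in the control. The groups overlapped in each of these genes. WARS2, for tryptophan, was at 14.3, 11.6 and 16.3 CPM in the knockdown and 14.6, 12.4 and 13.6 CPM in the control. YARS2, for tyrosine, was at 26.4, 24.1 and 22.2 CPM in the knockdown and 21.8, 21.6 and 27.1 CPM in the control, and PARS2, for proline, at 9.68, 9.30 and 8.64 CPM in the knockdown and 9.44, 9.15 and 8.32 CPM in the control. Their groups overlapped too, and none of the 7 had an adjusted p under 0.226 in edgeR.

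IARS2, the most abundant mitochondrial enzyme per kilobase, was at 188, 184 and 190.2 CPM in the knockdown and 210.4, 179 and 173 CPM in the control, with an interval of the log2 fold change of -0.17 to 0.17. RARS2 was at 56.7, 55.98 and 58.9 CPM in the knockdown and 60.7, 53.8 and 58.3 CPM in the control, with an interval of -0.18 to 0.16. Both estimates were negative and near 0, and scaling by library totals alone turned their sign (0.0248 for IARS2 and 0.0156 for RARS2). AARS2 was at 31.6, 26.5 and 22.7 CPM in the knockdown and 28.7, 27.9 and 26.3 CPM in the control, and HARS2, which overlaps HARS on the opposite strand, at 51.1, 50.1 and 47.05 CPM in the knockdown and 51.4, 50.7 and 53.9 CPM in the control, both with overlapping groups. MARS2 was low, at 3.78, 4.34 and 4.92 CPM in the knockdown and 5.56, 4.05 and 5.28 CPM in the control, with a wide interval of -0.60 to 0.21. SARS2 had 42, 24 and 11 reads in the knockdown libraries and 23, 37 and 16 in the control libraries. Its interval of -0.97 to 0.59 is the widest of the 40, and 71.6% of the 75-base stretches of its longest transcript also stand in transcripts of another annotated gene, so its count is uncertain.

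Setting each cytosolic enzyme against its mitochondrial partner within a library removes any scaling between libraries. Reads of CARS over CARS2 were 5.23, 4.72 and 4.18 in the knockdown libraries and 2.13, 1.78 and 2.01 in the control libraries. For AARS over AARS2 the ratio was 16.7, 17.8 and 20.3 in the knockdown and 9.14, 7.78 and 9.50 in the control. WARS over WARS2 gave 13.6, 17.2 and 11.4 in the knockdown and 6.71, 6.89 and 6.80 in the control. In each of these 3 pairs every knockdown ratio exceeded every control ratio. Among the 11 pairs with a raised cytosolic enzyme, which count EPRS once for each of its partners, 10 showed this, and SARS over SARS2 overlapped. The pairs were grouped by the call of the cytosolic gene, so this count describes them and tests nothing. Of the 5 pairs whose cytosolic enzyme was not called, 3 overlapped, LARS over LARS2 was higher in the knockdown and FARSB over FARS2 lower. With 3 libraries against 3, an exact two-sided permutation test cannot go below p = 0.1, which was the value of each pair without overlap.

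**Figure D5:**
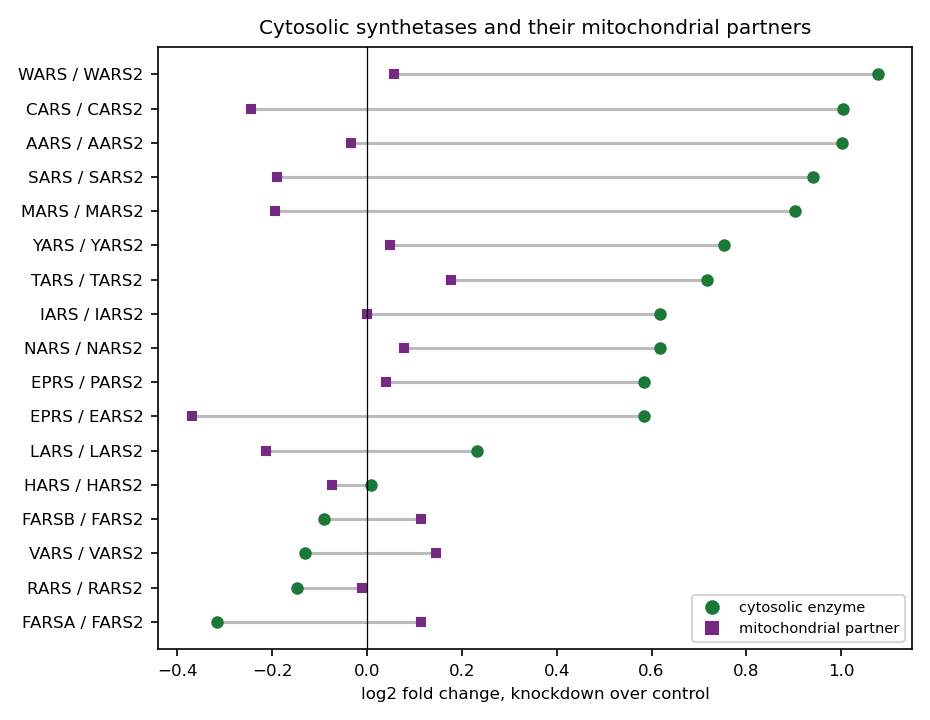
Log2 fold change, knockdown over control, of each cytosolic synthetase (green circle) and its mitochondrial partner (purple square) in 17 pairs, sorted by the cytosolic value; EPRS has a partner for each of its amino acids. The circles of the raised enzymes lie at 0.58 or above, and the squares lie between -0.37 and 0.18.

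In the other lists of tRNA charging and use, the shares called were read against the 8.08% of all tested genes called in either direction, at which a short list holds few calls or none. An unadjusted p under 0.05 was found for 2730 of the 12305 tested genes in edgeR, so counts at that threshold do not set such short lists apart. The 11 tested genes of the charging list were TARSL2, the amidotransferase subunits QRSL1, PET112 and GATC, MTFMT, PSTK, SEPSECS, AARSD1, DTD1, DTD2 and TRNT1. TARSL2 is itself a synthetase for threonine and was not counted with the cytosolic synthetases above. It had a log2 fold change of 0.16 (edgeR, adjusted p = 0.536). Of the 11 genes, 0 were called by edgeR, DESeq2 or limma-voom, and 4 had an unadjusted p under 0.05. Their log2 fold changes ran from -0.43 to 0.34 with a median of 0.14, against 0.01 over all tested genes. Of 10 tested elongation factors, which bring charged tRNA to the ribosome and move it on, 0 were called by these tools, 0 had an unadjusted p under 0.05, and the range was -0.13 to 0.17. EEF1G had 0 reads in all 6 libraries in this table, and EIF5A2 did not pass the filter.

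Among 21 tested genes of tRNA maturation, 1 rose and 1 fell. TSEN15, a subunit of the tRNA splicing endonuclease, was at 85.3 ± 5.72 CPM in the knockdown and 65.3 ± 4.83 CPM in the control (SD, n = 3 each; edgeR, adjusted p = 0.00452). ELAC2, which trims the 3′ end of precursor tRNA, was at 112 ± 6.44 CPM in the knockdown and 135 ± 6.68 CPM in the control (SD, n = 3 each; edgeR, adjusted p = 0.0281), and its call was lost without knockdown replicate 2 or 3 and without control replicate 1 or 3. Of 24 genes of RNA polymerase III, which transcribes tRNA genes, and its factors, only the subunit gene POLR3G was called, lower at 32.4 ± 3.91 CPM in the knockdown and 42.7 ± 3.42 CPM in the control (SD, n = 3 each; edgeR, adjusted p = 0.0165). POLR3G was no longer called without knockdown replicate 2 or control replicate 1. Of 6 mitochondrial translation factors the initiation factor gene MTIF2 rose, with 84.3 ± 5.02 CPM in the knockdown and 66.9 ± 1.58 CPM in the control (SD, n = 3 each; edgeR, adjusted p = 0.0094), and its call was lost without knockdown replicate 1 (0.0508). With 2 of 21, 1 of 24 and 1 of 6 called, these lists are too short to be set apart from that background.

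Of the genes listed for the sensing of uncharged tRNA and its output, EIF2AK4, GCN1L1 and EIF2S1 did not pass, while IMPACT, ATF4 and ASNS rose. EIF2AK4, the kinase that detects uncharged tRNA, was at 190.4 ± 6.91 CPM in the knockdown and 182 ± 9.87 CPM in the control (SD, n = 3 each), with an interval of the log2 fold change of -0.09 to 0.22. Its cofactor GCN1L1 had an interval of -0.32 to 0.03 and the kinase's substrate EIF2S1 one of -0.34 to -0.02, and neither was called. IMPACT, an inhibitor of the kinase, rose by 0.30 on the log2 scale (edgeR, adjusted p = 0.0468), and was called in 1 of the 6 fits that leave out a library and not with limma-voom (adjusted p = 0.0514). ATF4 had a log2 fold change of 0.94 and ASNS one of 1.91 (edgeR, adjusted p = 2.34e-08 and 5.63e-05). The log2 fold changes of the raised synthetases lay on both sides of that of ATF4 and below that of ASNS.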

How the data were processed

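The deposited table gives raw read counts per gene for 6 libraries, per the file headers, from which all values were computed. Per the submitters' processing notes, the authors used the build hg19 with STAR 2.7.9a, and the notes also name DESeq2, featureCounts 2.0 and fastp 0.20.0. How these were set, and whether counting used the strand, is not given in the sources used here. The table's 6 columns of normalised counts and 2 lines without values were not analysed here. Libraries hold 14244932 to 17880183 counts, so low genes carry the larger counting error.

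Groups came from the genotype label. Genes passing edgeR's filterByExpr (12305) were scaled with TMM and compared with edgeR 4.0.16 in R 4.3.3 (glmQLFit with robust dispersion, glmQLFTest, group only), with Benjamini-Hochberg adjustment over all of them and a call at an adjusted p under 0.05. CPM uses the TMM-scaled totals, an SE is the size of the log2 fold change divided by the root of its F statistic, and intervals are 95%. The code was tested on simulated data. Alternatives were other scalings, filters, thresholds and tools (DESeq2 1.42.0, limma-voom 3.58.1), the replicate number as a block and each library left out.

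The 40 genes and all other lists were chosen with earlier results of these data known. Every called member and every member against the majority direction of its role group was named, as was every called gene of the other lists. Planned comparisons of protein sequences were not run. RPP14, a symbol on more than 1 gene in the table, was matched by identifier, and KIAA0391 was not analysed here. The planned list of charging helpers held 1 further gene, which is not reported here.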

Additional observations from a re-analysis of the deposited data

How the results depend on the processing

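All 12 raised members were called again, in the same direction, under each of the 8 other fits of all 6 libraries, in each of the 6 fits that leave out 1 library and at an adjusted p under 0.01, and 11 of them, without EPRS, under a threshold of 1.5-fold. The number of raised members ranged from 12 to 13 over the fits without 1 library. Same-numbered libraries were not paired by the labels, and their deviations from the group means correlated by 0.0579, 0.107 and -0.0556. With the replicate number as a block LARS was called too (edgeR, adjusted p = 0.0432), giving 13 raised members. The 2 lowered members became 0 at an adjusted p under 0.01, 0 under 1.5-fold, and 0 to 2 when 1 library was left out. The calls over all genes, 487 higher and 507 lower, became 251 and 207 at an adjusted p under 0.01 and 165 and 111 under 1.5-fold. With library totals as the only scaling they were 610 and 417, and with the replicate block 587 and 647. With 1 library left out they ranged from 312 (without knockdown replicate 2) to 433 higher and from 285 (without knockdown replicate 3) to 423 lower, with 288 lower without knockdown replicate 2.

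Among members that were not called, the sign of values near 0 turned. IARS2 had 0.0248 and RARS2 0.0156 with library totals as the only scaling, and IARS2 0.00464 with limma-voom and 0.00409 with the replicate block. Without 1 library the sign turned in 12 members. The range of the log2 fold change was -0.0815 to 0.0656 for HARS, -0.0198 to 0.0606 for QARS, -0.166 to 0.0733 for AARS2, -0.00179 to 0.171 for FARS2, -0.0548 to 0.0899 for IARS2, -0.0116 to 0.0815 for PARS2, -0.0575 to 0.0289 for RARS2, -0.689 to 0.154 for SARS2, -0.0115 to 0.297 for VARS2, -0.0587 to 0.179 for WARS2, -0.0197 to 0.163 for YARS2 and -0.154 to 0.0369 for AIMP1. The count of 8 members with the composite element became 6 with its common form and 4 in the bases before the start site alone, where 3 of them are raised genes, against 7 in the whole window. The cause of the other changes was not tested. Depth limits SARS2 and MARS2, with under 100 reads in every library.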
